A study of Mus musculus with 7 samples.

Results

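Distal regions of open chromatin that were called in both Dll1+ and Dll1- mammary tumor cells, but stood higher in the ranking of the Dll1- cells, were collected from an ATAC-seq experiment. ATAC-seq uses a transposase that cuts and tags DNA where chromatin is open, so reads pile up at promoters and enhancers. The 2 deposited peak lists were merged into 119215 regions, of which 79153 held peaks of both populations and 64910 of those lay more than 1000 bp from every transcription start site (TSS) of a protein-coding gene. Each region was ranked within each list by its highest fold enrichment, the reads at the summit over the local background. The 6939 regions described here, called members, ranked at least 20 percentile points higher in the Dll1- list than in the Dll1+ list, which was 10.7% of all shared distal regions. The mirror set, at least 20 points higher in the Dll1+ list, held 7414 regions or 11.4%. The remaining 50557 shared distal regions differed by less.

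The cells came from freshly isolated spontaneous mammary tumors of mice that carried 2 transgenes. MMTV-PyMT expresses the polyoma middle T oncoprotein from a mammary tumor virus promoter, which is active mainly in mammary epithelium, and gives luminal-type tumors. The second transgene was an mCherry reporter for Dll1, a ligand of Notch receptors, so mCherry stands for Dll1 promoter activity and not for Dll1 protein. Cells with CD45, CD31 or Ter119 on their surface were removed in the sort, and the rest were split into mCherry-positive (Dll1+, 3 samples) and mCherry-negative cells (Dll1-, 4 samples). These 7 samples came from 4 tumors, 3 of which gave both populations. The authors processed the samples of each population together as a replicate group and deposited 1 peak list for each, so every value below is 1 value per population, with no value per sample and no replicate error. Intervals on shares are Wilson 95% intervals that cover counting error only, and regions are not replicates.

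Many distal open regions are enhancers, short stretches where transcription factors bind and from which they act on promoters. AP-1 is a family of paired factors made from FOS and JUN proteins, switched on by growth factor, stress and MAP kinase signals. It binds the letters TGAGTCA, which read TGACTCA on the other strand, and helps to open enhancers in epithelial cells. In mammary tumors, AP-1 works downstream of the kinases that the PyMT oncoprotein recruits.

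The AP-1 letters are shown first because their share differed most between the members and the other sets, which was known when they were picked. The lines below give 29 bases (GRCm38, the mouse genome build also called mm10) around the match nearest the Dll1- summit, written on the strand that reads TGAGTCA, with these letters in capitals. The first 7 belong to the members with the largest rank differences that held a match. The other 3 lie nearest to Jun, which encodes an AP-1 subunit, and were picked after their values were seen. A match is a stretch of letters and not a measured binding site.
Grin2b, chr6:136130730-136130758, plus strand: attcagacgtgTGAGTCAtaactgaatca
Gata3, chr2:9343461-9343489, plus strand: acagtgagaggTGAGTCAgggaccaaggc
Sox7, chr14:63925841-63925869, minus strand: cctgagaagtcTGAGTCAacgtaagccca
Rybp, chr6:100314396-100314424, plus strand: cttctcacacgTGAGTCAtttgtgtatgt
Elovl6, chr3:129588921-129588949, plus strand: aggagcaggtcTGAGTCAgaccaaggcag
Rnf144a, chr12:26191800-26191828, plus strand: ttatgttagggTGAGTCAcagccctgagt
Twist1, chr12:34041216-34041244, plus strand: ttcaaggactgTGAGTCAcattcctacca
Jun, chr4:95105557-95105585, minus strand: acagctcagcaTGAGTCAgtcagtcccct
Jun, chr4:95084213-95084241, minus strand: atggtttcttcTGAGTCAccgtagaacaa
Jun, chr4:95141380-95141408, minus strand: gtttcccacacTGAGTCAcagcttagatg

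The members were regions of middling strength in Dll1- cells and of low strength in Dll1+ cells, by the fold enrichment ranks they were chosen by. Their median fold enrichment was 8.42 in the Dll1- list (range 4.51 to 24.6) and 5.07 in the Dll1+ list (range 1.98 to 12.2). The median percentile was 57.1 in Dll1- and 24.0 in Dll1+, and the median difference was 28.3 points. A difference of 40 points or more was held by 1204 members and one of 60 points or more by 131 members. The top 10% of shared regions in the Dll1- ranking held 215 members (3.10%) and 8.41% of the other shared distal regions, a count that the 20-point rule itself limits. The plot of both percentiles shows the members as one edge of a continuous cloud and not as a separate group.

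**Figure D1:**
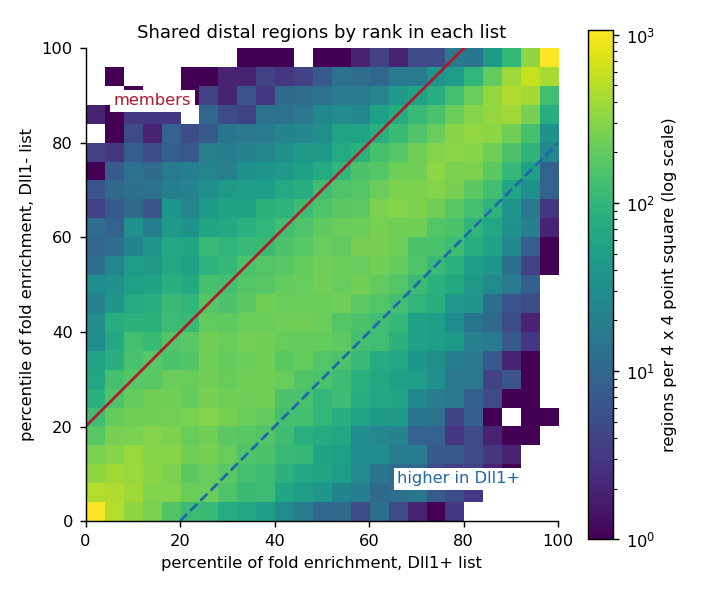
Number of shared distal regions (color, log scale) by the percentile of their fold enrichment in the Dll1+ list (horizontal axis) and in the Dll1- list (vertical axis), in squares of 4 by 4 points. The 6939 members lie above the solid line, the 7414 regions ranked higher in Dll1+ lie below the dashed line, and no gap separates either set from the other 50557 regions.

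Reads at the summits were recovered from the fold enrichment and the p-value of each row. The median member had 88 reads at its Dll1- summit and 28 at its Dll1+ summit. The lowest background of a list, 7.20 reads in Dll1- and 3.74 in Dll1+, was taken as a scale for depth, which made the Dll1- list 1.93 times as deep. After this scaling, 6795 of the 6939 members (97.9%) had more reads in Dll1-, with a median log2 ratio of 0.63, against -0.26 in the other shared distal regions and -1.04 in the mirror set. Only 1272 members (18.3%) reached a 2-fold difference on this scale. These reads come from the same contrast as the ranks and are a description of the members. The Dll1+ values rest on few reads, and how many members were placed in the set by counting error was not tested.

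The summits of both lists marked the same place in most members, as in the other sets. They lay within 100 bp of each other in 6565 members (94.6%), with a median gap of 17 bp, in 93.7% of the other shared distal regions and in 93.5% of the mirror set. A single summit was called in Dll1- in 5651 members (81.4%), compared with 72.2% of the other shared distal regions.

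The largest difference was found in an intron of Grin2b (chr6:136130361-136130846), which encodes a subunit of the NMDA glutamate receptor. Its fold enrichment was 16.8 from 153 reads in Dll1- and 3.38 from 15 reads in Dll1+. An intergenic region 22204 bp upstream of Rpe65 followed, with 14.7 in Dll1- and 2.74 in Dll1+. The region nearest to Gata3 (chr2:9343192-9343638), a luminal transcription factor gene whose TSS lay 535185 bp away, had a fold enrichment of 16.7 in Dll1- and 3.80 in Dll1+. A region 83464 bp from Twist1, which encodes a factor known for driving loss of epithelial features, had 12.3 in Dll1- and 3.17 in Dll1+. The other 6 of the top 10 lay nearest to Tas2r114, Sox7, Rpl38, Rybp, Elovl6 and Rnf144a. All 10 had 100 to 153 reads in Dll1- and 12 to 18 reads in Dll1+, and 7 of the 10 held the AP-1 letters. Of the 3 without them, the Rpe65 region held TGACTAA, which differs from the AP-1 letters by 1 base.

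The strongest members in Dll1- cells were different regions. The highest Dll1- fold enrichment was 24.6, against 9.50 in Dll1+, at a region nearest to Ss18, a gene for a subunit of the BAF chromatin remodeler. An intron of Rasal2, which encodes a Ras GTPase-activating protein, followed with 24.4 in Dll1- and 11.6 in Dll1+. Next was a region nearest to 3110018I06Rik with 22.7 and 12.0. Of these 10 strongest members, 8 held AP-1 letters, and the matches numbered 3 in the 3110018I06Rik region and 3 in a Gfra2 intron.

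At the threshold the set had no natural edge. The 5 members just inside it, nearest to Rims4, Rnf144b, Desi2, Kcnmb1 and Klf4, shared the same values of 9.39 in Dll1- and 6.97 in Dll1+, at percentiles 63.8 and 43.8. The 5 regions just outside it, nearest to Runx3, Csnk1d, Hhat, Runx1 and Irf2, had 5.48 to 11.6 in Dll1- and 3.94 to 8.44 in Dll1+.

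AP-1 letters were concentrated in the members. Within 100 bp of the strongest Dll1- summit, 2830 of 6939 members (40.8%, 39.6 to 41.9) held TGAGTCA on either strand. The share was 16.7% in the other shared distal regions and 5.52% (5.02 to 6.06) in the mirror set ranked higher in Dll1+, and 17.96% over all shared distal regions. Set against all shared distal non-members (15.2%), the members' share was 2.68 times as high. The intervals of the 3 sets did not overlap. Distal regions called in 1 list alone, which the rule did not use, lay on the same sides, with AP-1 letters in 31.3% of those found in Dll1- and 4.55% of those found in Dll1+. The letters are a property of the genome and took no part in choosing the members.

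The share rose with the rank difference, with 1 small step down from 4.72% to 4.55% among regions well ahead in Dll1+. It was 2.54% (3 of 118 regions) where Dll1+ was ahead by 60 points or more, and 12.9% where Dll1+ was ahead by 0 to 10 points. On the Dll1- side it was 20.7% at 0 to 10 points and 34.4% at 20 to 30 points. It reached 55.7% at 40 to 60 points and 77.1% (131 regions, 69.2 to 83.5) at 60 points or more.

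**Figure D2:**
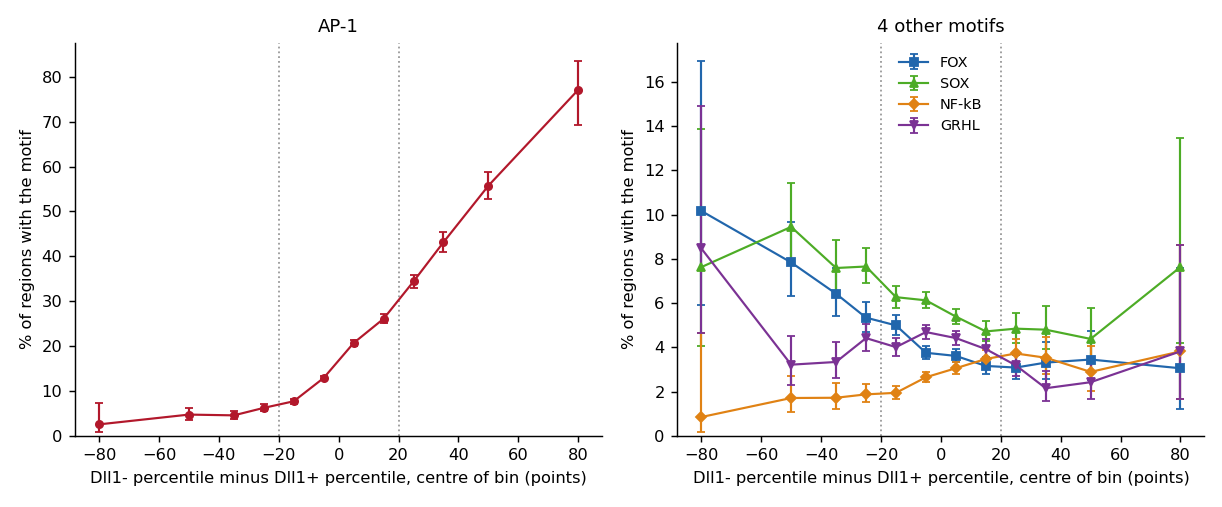
Percent of shared distal regions with a motif within 100 bp of the Dll1- summit (vertical axis) by the Dll1- percentile minus the Dll1+ percentile (horizontal axis, bin centres), with Wilson 95% intervals as bars and the 20-point thresholds as dotted lines. AP-1 (left) climbs from 2.54% to 77.1%, while FOX, SOX, NF-kB and GRHL (right) stay under 11% in every bin.

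Members with and without AP-1 letters are described here by the values that chose them, which test nothing. With the letters, the median Dll1- fold enrichment was 9.03, compared with 8.05 in the 4109 members without them, while the median Dll1+ value was 5.07 and 5.04. The median rank difference was 30.8 points with and 27.0 points without the letters.

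The difference in AP-1 share was present among weak and strong, GC-poor and GC-rich, near and remote regions. When shared distal regions were divided into 4 classes of strength by the mean of both percentiles, the members' share went from 34.1% in the weakest class to 54.6% in the strongest, against 12.1% and 23.4% in the other shared distal regions. In the strongest of 4 classes by the Dll1- percentile alone, 1000 of 1889 members (52.9%) and 3567 of 14266 others held the letters. The same order was found in introns, with 41.8% against 16.9%, and between genes, with 40.9% against 17.0%. Over 25 such strata by strength, GC content, position and summit number, several of them chosen after the AP-1 share was known, the members' share was higher in all 25, by 1.97 to 3.97 times. It ranged from 32.0% to 46.6% over the 20 chromosomes other than Y, while the other shared distal regions ranged from 15.04% to 18.5%.

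Within members, the matches gathered at the summit. The nearest match lay a median of 26 bp from the Dll1- summit in members and 28 bp in the other shared distal regions. The density of matches near the summit was 44.7 per 1000 members in the 10 bp bin centred 5 bp past it. It was 8.65 in the bin centred at -85 bp, the outermost full bin on the left. Members also held several matches more often, as 419 of the 2830 members with AP-1 letters (14.8%, 13.5 to 16.2) had 2 or more, compared with 7.65% (7.10 to 8.24) of the other shared distal regions with AP-1 letters and 1.71% in the mirror set.

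**Figure D3:**
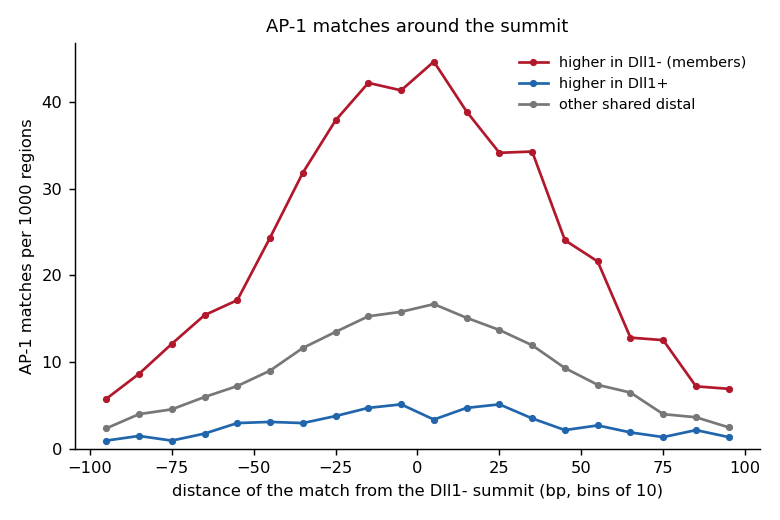
AP-1 matches per 1000 regions (vertical axis) by distance from the strongest Dll1- summit (horizontal axis, bins of 10 bp) for members, regions ranked higher in Dll1+ and the other shared distal regions. Members reach 44.7 near the summit, and the mirror set stays at or below 5.13.

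No other 7-letter word had as high a ratio. All 8192 distinct 7-letter words, each counted with its reverse complement, were scored in the same windows, a step chosen after the AP-1 share had been seen. Of the 5672 words present in at least 1% of members, TGACTCA with TGAGTCA had the highest ratio of members to non-members. The next was ATGAGTC, which holds 6 letters of it, in 16.2% of members and 6.16% of non-members. In windows without the AP-1 letters, the leading word was TTAGTCA with TGACTAA, found in 10.98% of members and 4.08% of non-members. TGATTCA with TGAATCA was found there in 10.2% and 4.10%. Both differ from the AP-1 letters by 1 base, so close relatives of the AP-1 letters were also more frequent in members that lacked the exact match. At the low end stood GGCGGGC, in 1.17% of members and 1.96% of non-members, and TTGGCAC, in 3.34% and 5.43%.

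The other 27 motifs searched showed far smaller differences. They were looked for on both strands as fixed letters: CRE as TGACGTCA, ATF4-CEBP as TGATGCAA, C/EBP as TTGCNCAA, TEAD as GGAATG, RUNX as TGTGGTTT, FOX as TGTTTAC, SOX as AACAATG, GRHL as AACCNGTT, ETS as AGGAAGT, RBPJ as GTGGGAA, STAT as TTCCNGGAA, GATA as AGATAAG, KLF as GGGTGTGG, E-box as CAGGTG, TFAP2 as GCCNNNGGC, POU as ATGCAAAT, HRE as TACGTGC and SMAD as GTCTAGAC, with N for any base. CTCF, p63, NF1, NF-kB, steroid receptor, ER, SRF, MEF2 and ARE were searched by longer consensus letters. E-box letters were in 20.3% of members, 16.5% of the mirror set and 19.3% of all shared distal regions. TFAP2 letters were in 11.2%, 8.19% and 10.9% of the same sets. ARE, the site of the oxidative stress factor NRF2 and its small MAF partners, was in 5.62% of members, 3.63% of the mirror set and 4.12% of all shared distal regions. Its letters can overlap those of AP-1 and did so in 108 of the 390 members with ARE (27.7%).

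NF-kB letters, the site of the inflammatory and survival factors that the study follows in Dll1+ cells, were in 246 members (3.55%, 3.14 to 4.01). They were in 1.79% (1.52 to 2.12) of the mirror set and 2.76% of all shared distal regions. RBPJ binds DNA for Notch, and its letters were in 4.06% of members and 3.94% of the mirror set, with overlapping intervals and 4.28% over all shared distal regions. FOX, SOX and GRHL letters were less frequent in members than in both other sets, and RUNX letters less frequent than in the mirror set, while the RUNX intervals of members and of the other shared distal regions overlapped. GATA letters were in 1.56% of members (1.29 to 1.88) and 1.15% of the mirror set (0.928 to 1.42), with overlapping intervals. Over all shared distal regions the GATA share was 1.22%, which lies below the members' interval. It was 1.41% in regions called in Dll1- alone and 1.78% in those called in Dll1+ alone. The member and mirror set intervals for p63 letters, at 0.706% and 0.486%, also overlapped, and the share over all shared distal regions was 0.485%. FOX letters were in 3.20% of members and 6.04% of the mirror set, with 4.01% over all shared distal regions. SOX letters were in 4.81% and 7.88%, with 5.84% over all. RUNX letters were in 1.69% and 3.10%, with 2.17% over all. GRHL letters, of the grainyhead-like factors that keep epithelial cells together, were in 2.81% of members, 4.03% of the mirror set and 4.16% of all. TEAD letters, bound by the partners of the Hippo effectors YAP and TAZ, were in 15.2% of members (14.4 to 16.1), 18.02% of the mirror set and 15.9% of all, which the members' interval holds.

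**Figure D4:**
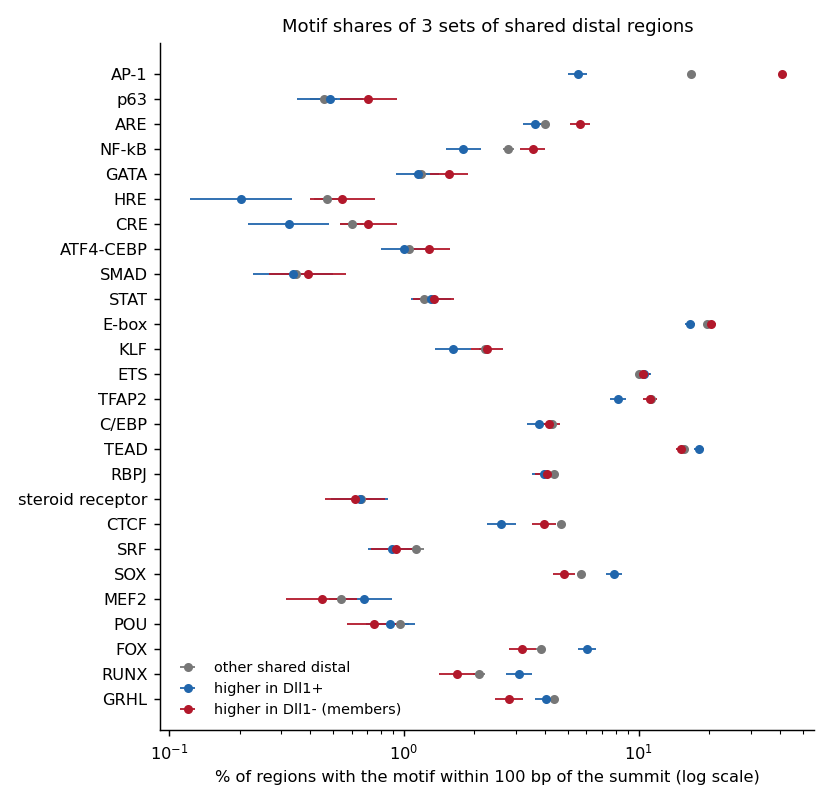
Percent of regions with each motif within 100 bp of the Dll1- summit (horizontal axis, log scale) in members, regions ranked higher in Dll1+ and the other shared distal regions, with Wilson 95% intervals as bars, for motifs found in at least 20 members. Motifs are ordered by the ratio of members to non-members, with AP-1 at 40.8% on top and GRHL at 2.81% at the bottom.

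In position, the members differed little from other shared distal regions, though several intervals did not overlap. By the midpoint, 3561 members (51.3%) were in introns and 2998 (43.2%) between genes, compared with 52.3% and 41.3% of the others. Coding exons held 124 members (1.79%) and 2.33% of the others, and these intervals did not overlap. Untranslated exons held 122 members (1.76%) and 1.83% of the others. Non-coding exons held 134 members (1.93%) and 2.27% of the others. The intervals overlapped for both of these exon classes. The median distance to the nearest protein-coding TSS was 29480 bp in members, 28770 bp in the other shared distal regions and 40801.5 bp in the mirror set. Within 10 kb of a TSS lay 20.4% (19.5 to 21.4) of members and 23.6% (23.2 to 23.9) of the others. Another shared distal region lay within 10 kb of 63.5% (62.4 to 64.6) of members and 67.7% (67.3 to 68.1) of the others. A region called in Dll1- alone, distal or not, lay within 10 kb of 37.4% of members and of 37.4% of the others. Another member lay within 10 kb of 687 members (9.90%), and a member lay within 10 kb of 12.0% of the other shared distal regions and 11.4% of the mirror set.

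By nearest TSS the members were spread over 4698 of the 13385 genes that had a shared distal region. Of these, 3257 genes had 1 member, 933 had 2 and 508 had 3 or more. The gene with most members was Gata3, needed for luminal identity in the mammary gland, with 8 of 51 shared distal regions, while 7 others were higher in Dll1+. Of the 8, only 1 lay within 50 kb of the Gata3 TSS. Its members ran from 22.5 to 82.2 points and 5 of the 8 held AP-1 letters. The member in the Gata3 transcript itself (chr2:9860747-9861322) had a fold enrichment of 10.9 in Dll1- and 4.90 in Dll1+.

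Another 7 genes had 7 members each. Zfp217, a zinc finger factor gene whose human counterpart is amplified in breast cancers, had 7 of 28, with 1 region higher in Dll1+. Its highest member (chr2:170247697-170248480) had a fold enrichment of 17.9 in Dll1- and 6.12 in Dll1+ and 2 AP-1 matches. Cited2, a transcription co-regulator gene, had 7 of 60 and 11 higher in Dll1+, so its regions did not lean to Dll1-. The others were Fggy with 7 of 17, Plcb1 with 7 of 20, Mast4 with 7 of 27, Adamts16 with 7 of 34 and Chrm3 with 7 of 37. Regions higher in Dll1+ numbered 8 at Chrm3, 6 at Adamts16, 4 at Plcb1 and 2 each at Fggy and Mast4.

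Of the 17 genes with 6 members, the 12 with the highest shares completed the 20 genes with most members. Sox9, a progenitor cell factor gene, had 6 of 33, the highest in Dll1- at a fold enrichment of 16.2 against 9.25 in Dll1+. Utrn, the gene of the dystrophin relative utrophin, had 6 of 32, and 5 of these held AP-1 letters. Plk2, a polo-like kinase gene, had 6 of 22 and none with AP-1 letters. Its highest member had 17.2 in Dll1- and 9.29 in Dll1+. The 6 members of Lmx1b (of 12), a homeobox gene, also held none. Dmrtb1, Tspan5, Mecom, Prdm1, Marcks, Tns1, Bcl2l14 and Sox5 made up the rest. In all, the 20 genes held 129 members of 592 shared distal regions. Of these members 51 held AP-1 letters, beside 2830 of all 6939 members (40.8%). Only 42 lay within 50 kb of the TSS, whereas 4547 of all 6939 members (65.5%) lay within 50 kb of a TSS.

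Among genes with at least 8 shared distal regions, the highest member share was reached by Lmx1b with 6 of 12, by Bambi and Cux1 with 5 of 10 each, and by Abr, Adk and Slc5a1 with 4 of 8 each. Bambi encodes a decoy receptor that damps TGF-beta signals, and Slc5a1 the sodium-glucose transporter SGLT1. Next came Dmrtb1 with 6 of 13, and Ccnd1, Amotl1 and Ss18 with 4 of 9 each. Ccnd1, the cyclin D1 gene that drives entry into the cell cycle, had no region higher in Dll1+. Its most shifted member, 103602 bp upstream, had a fold enrichment of 13.1 in Dll1- and 4.85 in Dll1+. These 10 genes were picked as the highest of 2485 and their shares are a description.

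By nearest TSS at any distance, no gene list had a share of members apart from that over all genes. Against 10.7% over all genes, the 20 lists ranged from 7.59% to 14.9%, and the interval of each of the 20 held the share over all genes. The genes for AP-1 subunits and their bZIP relatives had 18 members of 166 shared distal regions (10.8%, 6.97 to 16.5). Jun had 3 members, all 3 with AP-1 letters, Bach2 had 3, and Atf3 and Fosl2 had 2 each. The Jun member 53304 bp upstream rested on many reads, 351 in Dll1- and 95 in Dll1+, with a fold enrichment of 12.3 and 7.04. Ranking by p-value instead of fold gave 29 of 166 (17.5%, 12.4 to 24.0) for this list, against 10.8% over all genes, and the interval of the other 19 lists held that share. Early response genes, induced within minutes of growth factor signals, had 50 of 503 (9.94%), with Phlda1 and Klf6 at 5 each and Gadd45a and Klf4 at 4 each.

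Regions ranked higher in Dll1+ were a smaller share around both lists than over all genes. They were 8 of 166 (4.82%, 2.46 to 9.22) for AP-1 subunits and 22 of 503 (4.37%, 2.91 to 6.53) for early response genes, against 11.4% over all genes. In the other 18 lists the interval held 11.4%. Within 50 kb of the TSS, the early response genes had 6 of 205 (2.93%) higher in Dll1+ and 17 (8.29%) members, against 9.85% and 10.9% over all genes. At this distance the AP-1 subunit genes had 4 of 110 (3.64%, 1.42 to 8.98) and the luminal genes 6 of 182 (3.30%, 1.52 to 7.00) higher in Dll1+, and the intervals of the other 17 lists held 9.85%.

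**Figure D5:**
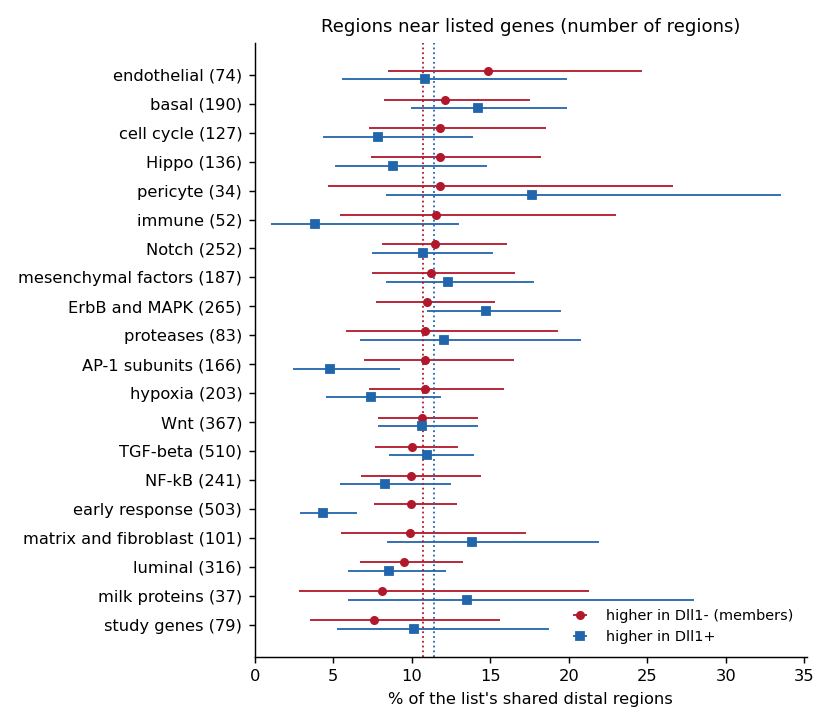
Percent of the shared distal regions nearest to the genes of each list that are members or are ranked higher in Dll1+ (horizontal axis), with Wilson 95% intervals as bars, the shares over all genes as dotted lines and the number of regions in brackets. Every member interval crosses the 10.7% line, and the early response and AP-1 lists lie below 11.4% for regions higher in Dll1+.

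Signaling lists were near the share over all genes. The Notch list had 29 members of 252 (11.5%), led by Maml3 with 5 and Rbpj with 4, genes for a co-activator and for the DNA-bound factor of the pathway. A member 12215 bp upstream of Rbpj had a fold enrichment of 10.5 in Dll1- and 5.07 in Dll1+, with AP-1 letters. The NF-kB list had 24 of 241 (9.96%), with 2 each for Ccl2, Csf2, Tnfrsf1b and Csf1. The TGF-beta list had 51 of 510, and Tgfbr2, a receptor gene, had 6. The Smurf1 gene of the same list, for a ubiquitin ligase, had 4 members and all 4 held AP-1 letters. The Wnt list had 39 of 367 (10.6%), the ErbB and MAPK list 29 of 265 (10.9%), the hypoxia list 22 of 203 (10.8%) and the Hippo list 16 of 136 (11.8%). Of the growth factor pathway genes, Spry2, a feedback inhibitor of receptor kinases, had 3 members, each with 2 or more AP-1 matches. Its highest had 15.7 in Dll1- from 315 reads and 6.38 in Dll1+ from 68 reads. Vegfa, the hypoxia-induced vessel growth factor, had 4 of 14 and none higher in Dll1+.

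The protease list had 9 members of 83 (10.8%), among them 2 of 3 regions near Plau, which encodes the urokinase plasminogen activator. The Plau region 13957 bp from the TSS had a fold enrichment of 14.6 in Dll1- and 6.54 in Dll1+. The cell cycle list had 15 of 127 (11.8%), with 4 each for Ccnd1, Mki67 and Cdkn2b.

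Luminal genes had 30 members of 316 (9.49%), basal genes 23 of 190 (12.1%), milk protein genes 3 of 37 (8.11%) and mesenchymal factor genes 21 of 187 (11.2%). Lists of cells that the sort should remove or that lie outside the epithelium had few regions. Endothelial genes had 11 of 74 (14.9%, 8.51 to 24.7) and, within 50 kb of the TSS, 7 of 31 (22.6%, 11.4 to 39.8) against 10.9% over all genes, the 1 list of 20 whose interval there lay above that share. There were 6 members of 52 regions (11.5%) near immune genes, 4 of 34 (11.8%) near pericyte genes and 10 (9.90%) near matrix and fibroblast genes. At promoters, 30 of 32 luminal genes had a region within 1000 bp of the TSS shared by both lists, but 16 of 25 basal, 3 of 15 endothelial and 2 of 22 immune genes. Pericyte genes had 5 of 10 and matrix and fibroblast genes 10 of 26. The median promoter difference was 10.4 points toward Dll1- in the endothelial, 9.72 in the matrix and fibroblast and 6.63 in the immune genes with such a region, compared with 2.63 in luminal, -0.63 in pericyte and -1.94 in basal genes. The Krt8 promoter had a shared region, while Krt5, Krt14, Pecam1 and Cdh5 had no shared promoter region. The part of other cell types in the members was not tested.

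The genes the study itself labels had 6 members of 79 shared distal regions (7.59%, 3.53 to 15.6), an interval that holds the share over all genes, and 8 regions (10.1%) higher in Dll1+. Nfkb1 had 2 of 21 and 1 region higher in Dll1+, with both members in introns near its start. The one 7062 bp from the TSS had a fold enrichment of 7.36 in Dll1- from 215 reads and 4.21 in Dll1+ from 90 reads, and held AP-1 letters. Dll1 had 1 of 15, which lay 144319 bp away in a non-coding exon, with 6.59 in Dll1- and 3.81 in Dll1+. It also had 1 region higher in Dll1+, and its promoter stood at percentile 14.02 in Dll1- and 31.77 in Dll1+. Npy had 2 of 9 and Ntrk3 1 of 20, while Hepacam2, Bglap2, Krt5, Krt14 and Krt8 had none.

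The share of promoters shifted toward Dll1- did not differ clearly between genes with and without members. Of the 14243 shared regions within 1000 bp of a TSS, 536 (3.76%) were at least 20 points higher in Dll1-, a smaller share than the 10.7% of distal regions. The 20-point rule itself shuts out regions near the top of the Dll1+ ranking, which was not corrected for. For a gene with several shared promoter regions, the one of highest Dll1- percentile was used, a choice that leans the differences toward Dll1-. Promoter regions had a median difference of 1.21 points for genes with no member, 0.998 for genes with 1 member and 2.01 for genes with 3 or more. A promoter shift of 20 points or more was found in 3.51% (3.07 to 4.02) of genes with no member and 4.74% (3.12 to 7.14) of those with 3 or more, with overlapping intervals. In genes with 5 or more members it was found in 3.33% (0.919 to 11.4). Gata3 had a promoter difference of 10.2 points and Sox9 one of 16.1, while Mecom had -37.4 and Tns1 -30.2. Mecom also had 7 distal regions higher in Dll1+ beside its 6 members. Jun was among the genes whose promoter moved with the members, at percentile 43.9 in Dll1- and 20.7 in Dll1+.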

How the data were processed

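The authors ran the replicates of each population together through the ENCODE ATAC-seq pipeline and deposited 1 list per population; how reads were combined, the aligner, peak caller and thresholds are not given in the sources used here. Each row's fold enrichment (a ratio) and −log10 p-value were used as deposited, on build mm10 per the labels. Lists held 132872 (Dll1+) and 148923 (Dll1-) rows. The total depth per sample is unknown. The deposited score was not used.

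Rows were merged where they overlapped or touched. Distances used all basic transcripts of protein-coding genes in GENCODE M21, and letters came from GRCm38.p6. Reads were solved from fold and p-value under a Poisson model (1 Dll1- row was not solved). The fold was assumed to be reads plus 1 over background plus 1. Simulated data built on the same form tested the solving, and cannot show that the deposited values follow that form. Scripts used Python 3.11.15, pandas 2.3.3 and SciPy 1.17.1. Named regions were the 10 of largest difference, the 10 of highest Dll1- fold and 5 on each side of the threshold. Named genes were the 20 with most members (ties by share), the 10 of highest share, the genes labelled by the study and up to 4 per list. Members, lists and motifs were chosen with earlier results of these data known. No p-value was computed, since the lists have no replicates.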

Additional observations from a re-analysis of the deposited data

How the results depend on the processing

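No paired analysis was possible because each population has 1 list without a value per tumor, and no replicate could be left out for the same reason. The members' AP-1 share was above that of the non-members under all 21 alternatives, by 2.14 to 3.37 times. The number of members followed the threshold, with 15202, 4585, 3017 and 1204 at differences of 10, 25, 30 and 40 points, and stayed within 1.5 times of 6939 under the other 10 alternatives. The AP-1 share was 32.8%, 36.6%, 45.5%, 49.1% and 58.1% at differences of 10, 15, 25, 30 and 40 points. It was 43.7% when regions were ranked by recovered reads, 37.9% with rows at or above the median fold and 38.9% with percentiles among shared distal regions. It was 31.5% within 50 bp, 38.2% at the Dll1+ summit and 46.5% over the whole region. In the 4 classes of strength it was 34.1%, 38.8%, 43.3% and 54.6%. The members themselves depended on the measure, as ranking by p-value kept 84.6% of them and ranking by reads kept 68.7%. Of the 27 other motifs, 24 stayed on the same side of the non-members in the shorter window and in windows without AP-1, and C/EBP, CTCF and POU did not. A limit of 50 kb to the TSS cut the Gata3 members from 8 to 1 and those of the 20 genes with most members from 129 to 42. Members had a median of 28 reads in Dll1+, against 48 over all shared distal regions, and the rule picks regions ranked low in Dll1+. The cause of the changes between settings was not tested.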

Other observations

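CTCF letters, the site of the factor that anchors chromatin loops, were rarer beside AP-1 letters in members and in the other shared distal regions alike. They were in 0.636% (0.403 to 1.00) of members with AP-1 letters and in 6.25% (5.55 to 7.04) of members without them, and in 1.09% and 5.37% of the other shared distal regions. Along the rank difference the CTCF share was highest at 5.30%, for differences of 10 to 20 points. It was 0.503% where Dll1+ was ahead by 40 to 60 points and 3.08% where Dll1- was ahead by as much. TFAP2 letters were in 9.33% of members with AP-1 letters and 12.4% without, and in 9.41% and 11.7% of the other shared distal regions. ARE letters, overlapping matches included, were in 7.77% and 4.14% of members and in 6.72% and 3.43% of the other shared distal regions.

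On the X chromosome, 125 of 1451 shared distal regions (8.61%) were members and 239 (16.5%) were higher in Dll1+, against 10.7% and 11.4% over all shared distal regions. Chromosome 19 had the highest member share of the autosomes, 12.4%, and 10.3% higher in Dll1+.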
